A study of Mus musculus with 8 samples.

Results

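A panel of 9 genes that mark neurons of the vestibular ganglion was measured in embryonic mouse utricles. The panel was Neurod1, Neurog1, Pou4f1, Tlx3, Shox2, Calca, Thy1, Cntn2 and Rbfox3, out of 48709 genes in the count files. The genes were chosen by name, with earlier results of these data known. The symbols of 6 were found in the authors' normalized table, and Neurog1, Tlx3 and Thy1 were matched by their GENCODE symbol. All 9 are protein-coding genes. The panel was taken as a measure of how much ganglion was carried over with each dissected utricle, and was then compared by genotype. Whether it tracks the ganglion was not tested, as all libraries are of utricle.

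The tissue was the utricle, the inner ear organ that senses gravity and linear acceleration, taken at embryonic day E15.5 from C57BL/6 mice. There were 4 libraries from heterozygotes with 1 Rest allele lacking exon 4, written Rest(+/deltaExon4), and 4 from wild-type embryos. RNA of 7 to 9 mice was pooled for each library, so that an animal's own level is not seen and the p-values measure the spread between pools. The titles call the heterozygotes KO, while the genotype label gives 1 allele lacking exon 4. What this does to the activity of REST was not measured here. The labels of wild-type replicate 4 read day E15.6 and strain C57BL/7, which were taken as given. REST is a repressor that holds neuronal genes silent in other cells.

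The vestibular ganglion holds the bipolar neurons that connect the hair cells of the utricle and the semicircular canals to the brainstem. Its neuroblasts arise in the otic epithelium, switch on Neurog1 and then Neurod1, leave the epithelium and mature into neurons that send a peripheral axon back to the sensory patch. The cell bodies lie outside the utricle. RNA of the ganglion can therefore reach a utricle library through tissue left attached at dissection, besides what peripheral axons hold. In such bulk samples fewer cells of a type and less RNA per cell cannot be told apart.

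Heterozygous libraries held 22.4 to 24.6 M read pairs on genes, and wild-type libraries 20.4 to 23.8 M. Levels are given as CPM, a gene's read pairs divided by the library's total in M, after TMM scaling, a correction for library composition. Markers of the labelled tissue were present: the summed level of 14 hair cell genes was 712 to 860 CPM in heterozygous and 851 to 978 CPM in wild-type libraries. That of 10 supporting cell genes was 2683 to 3333 CPM in heterozygous and 2648 to 3357 CPM in wild-type libraries. The second sum is mostly Sox9 (mean 1878 CPM in heterozygous and 1789 CPM in wild-type libraries) and Jag1 (928 and 898 CPM). Sox2 averaged 41.0 CPM in heterozygous and 34.1 CPM in wild-type libraries. Rest itself averaged 126.9 CPM in heterozygous and 116.5 CPM in wild-type libraries, but a whole-gene count does not check the loss of exon 4.

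Per kilobase of exon, the scale on which levels can be compared between genes, Pou4f1 stood first with 6.51 ± 1.48 CPM per kb (SD over 8 libraries). Neurod1 followed with 1.82 ± 0.672, Shox2 with 1.03 ± 0.474, Calca with 1.003 ± 0.204 and Rbfox3 with 0.769 ± 0.314 CPM per kb. Cntn2 was at 0.0721 ± 0.029, Neurog1 at 0.0568 ± 0.041, Thy1 at 0.0273 ± 0.0234 and Tlx3 at 0.0168 ± 0.0281 CPM per kb. The lowest Pou4f1 library (4.92 CPM per kb) lay above the highest Neurod1 library (3.19 CPM per kb). The lowest Rbfox3 library (0.309 CPM per kb) lay above the highest Cntn2 library (0.109 CPM per kb). All other neighbours in this order had overlapping ranges. The panel's level was therefore mostly that of Pou4f1, while 3 of the 9 markers were at or near 0 in every library.

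**Figure D1:**
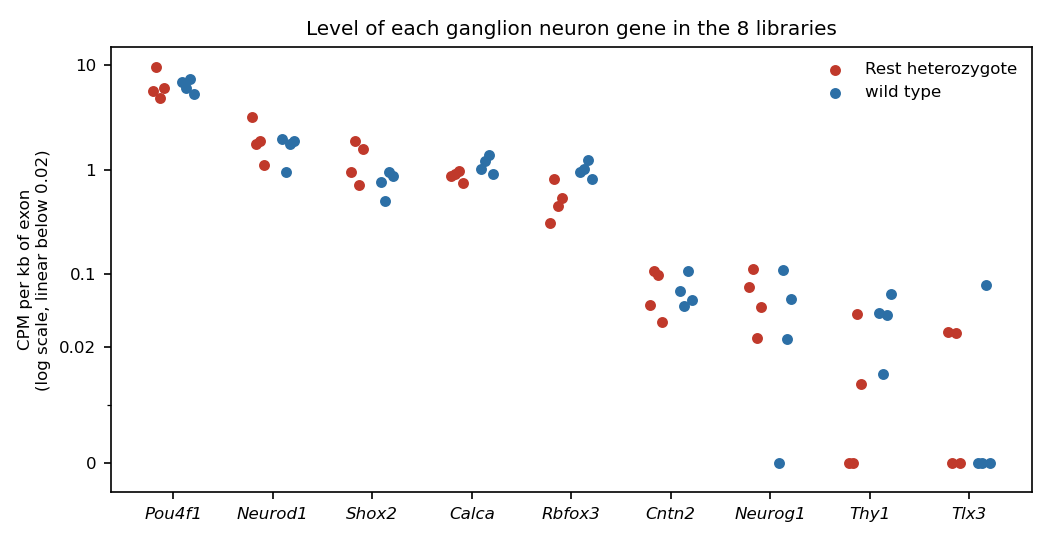
CPM per kb of exon (vertical, log scale that is linear below 0.02) of the 9 genes in 4 Rest heterozygous and 4 wild-type libraries, 1 point per library. Pou4f1 lies apart at 4.92 to 9.60 CPM per kb, and Neurog1, Thy1 and Tlx3 reach 0 in some libraries.

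Promoters are shown for the most abundant member, Pou4f1, and for Rbfox3 and Shox2, the members with the smallest unadjusted p between genotypes. Each is the 250 bases before the RefSeq start (GRCm38.p6, minus strand), and capitals mark E-boxes (CANNTG, the same on both strands), the motif bound by the NEUROG and NEUROD family. Pou4f1 lies at chr14:104468000-104468249, Rbfox3 at chr11:118761042-118761291 and Shox2 at chr3:66981772-66982021.
Pou4f1: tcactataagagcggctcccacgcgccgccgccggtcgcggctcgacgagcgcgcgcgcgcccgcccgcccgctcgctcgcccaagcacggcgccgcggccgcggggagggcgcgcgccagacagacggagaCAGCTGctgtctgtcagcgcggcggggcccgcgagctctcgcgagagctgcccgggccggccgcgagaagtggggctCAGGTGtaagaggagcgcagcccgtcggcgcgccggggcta
Rbfox3: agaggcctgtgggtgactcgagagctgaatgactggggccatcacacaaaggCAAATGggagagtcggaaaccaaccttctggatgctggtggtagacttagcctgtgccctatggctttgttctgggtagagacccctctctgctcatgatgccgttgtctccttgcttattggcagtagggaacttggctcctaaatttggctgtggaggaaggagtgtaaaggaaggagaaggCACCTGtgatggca
Shox2: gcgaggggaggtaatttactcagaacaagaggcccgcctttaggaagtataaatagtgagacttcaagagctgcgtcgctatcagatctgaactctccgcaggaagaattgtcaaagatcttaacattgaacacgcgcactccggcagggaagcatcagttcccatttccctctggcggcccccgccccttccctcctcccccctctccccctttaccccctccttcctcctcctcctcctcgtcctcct
Pou4f1 and Rbfox3 hold 2 E-boxes each in this window and Shox2 has none. The Rbfox3 window lies inside the span that GENCODE gives the gene, so it precedes an internal start. Of 8 members with a window, 5 hold an E-box, near the 66.2% of all 32851 windows that do. A core of the RE1 element, which REST binds, was searched on both strands and matched 0 of the 8 and 15 of all windows (0.0457%). A match describes letters and not a bound site.

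Pou4f1 (ENSMUSG00000048349; GRCm38 chromosome 14, 104461676 to 104467999, minus strand) encodes a POU-domain factor of sensory neurons in cranial and dorsal root ganglia. It had 26.7, 44.8, 23.0 and 28.3 CPM in heterozygous libraries 1 to 4, against 32.2, 28.7, 34.5 and 25.1 CPM in wild-type libraries 1 to 4. Heterozygous replicate 2 was the highest library and heterozygous replicate 3 the lowest, so that the wild-type libraries all fell inside the heterozygous range. The mean was 30.7 ± 9.68 CPM in heterozygous and 30.1 ± 4.11 CPM in wild-type libraries (SD over 4 libraries). The log2 change was 0.03 ± 0.19 (SE), with a 95% interval of 0.760-fold to 1.36-fold (edgeR's quasi-likelihood test, Benjamini-Hochberg adjusted p = 0.97). Its sign turned under 5 of 8 other settings, and also without heterozygous replicate 2 (-0.20) or wild-type replicate 4 (-0.05), so no direction is given. These reversals are not all separate. Of the 5 settings, 1 used the authors' libraries, which also lack wild-type replicate 4, and 1 left out heterozygous replicate 2 with wild-type replicate 3.

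Neurod1 (chromosome 2, 79452521 to 79456751, minus strand) encodes a basic helix-loop-helix factor needed for the survival of young otic neurons. It had 8.70, 4.83, 5.13 and 3.07 CPM in heterozygous libraries and 5.40, 2.59, 4.77 and 5.19 CPM in wild-type libraries, in the order of their replicate numbers. Heterozygous replicate 1 was highest and wild-type replicate 2 lowest, and the groups overlapped. The log2 change was 0.27 ± 0.32 (SE; edgeR adjusted p = 0.748), and it was -0.05 without heterozygous replicate 1. Exons of Neurod1 share 201 bases with Cerkl on the same strand and 154 bases with the noncoding Gm26755 on the other strand. The strand columns together held 1.16 times the unstranded count, so part of its reads were left out of the unstranded count. These columns held similar counts (564 and 495 read pairs for Neurod1, 2778 and 2776 for Pou4f1). They therefore do not separate the strands and cannot assign the shared reads.

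Shox2 (chromosome 3, 66971727 to 66981771, minus strand) encodes a homeobox factor of some sensory neurons that is also used by limb and heart mesenchyme. It had 3.17, 6.31, 2.38 and 5.28 CPM in heterozygous libraries, against 2.51, 1.66, 3.15 and 2.86 CPM in wild-type libraries. Heterozygous replicates 2 and 4 lay well above all wild-type libraries and replicate 1 just above them, while replicate 3 lay below 3 of them. The mean was 4.29 ± 1.82 CPM in heterozygous and 2.55 ± 0.646 CPM in wild-type libraries, a log2 difference of 0.75 ± 0.33 (SE). It had an unadjusted p of 0.0429 but missed the threshold after adjustment (edgeR adjusted p = 0.359, exact two-sided permutation p = 0.171). Beside this, the summed level of 7 mesenchyme genes was 1737, 2530, 1951 and 2186 CPM in heterozygous libraries and 2242, 2021, 2082 and 2038 CPM in wild-type libraries. It was highest in heterozygous replicate 2, the library highest in Shox2, and its part in the result was not tested. Its exons share 153 bases with Rsrc1 on the opposite strand.

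The other 2 transcription factors were barely detected. Neurog1 (chromosome 13, 56250478 to 56252163, minus strand), the factor that commits otic cells to a neuronal fate, had 3, 4, 1 and 2 read pairs in heterozygous libraries, against 0, 4, 1 and 2 in wild-type libraries. Tlx3 (chromosome 11, 33200752 to 33203589, minus strand), a homeobox factor that favours a glutamatergic neuronal fate in the mouse spinal cord, had 1, 0, 1 and 0 read pairs in heterozygous libraries, against 0, 0, 3 and 0 in wild-type libraries. Neither passed the filter on low counts. Scaled for library size, the ratio of summed read pairs was 1.40 for Neurog1 (95% interval 0.48 to 4.32) and 0.651 for Tlx3 (0.0544 to 5.69), intervals of counting error only that cannot show a difference at this depth. A count of 0 allows up to 3 read pairs, which is 0.121 to 0.145 CPM in these libraries.

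Calca (chromosome 7, 114631478 to 114636357, minus strand) encodes calcitonin and the neuropeptide CGRP, a peptide made by many sensory and efferent neurons. It had 1.46, 1.53, 1.63 and 1.27 CPM in heterozygous libraries, against 1.70, 2.03, 2.35 and 1.55 CPM in wild-type libraries. Wild-type replicates 1 to 3 lay above all heterozygous libraries, and the groups overlapped only through wild-type replicate 4, which was below heterozygous replicate 3. The log2 change was -0.38 ± 0.24 (SE; edgeR adjusted p = 0.537, exact two-sided permutation p = 0.0571). Without wild-type replicate 3 it was -0.26 (adjusted p = 0.734).

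Of the surface proteins, Cntn2 (chromosome 1, 132509427 to 132543256, minus strand) encodes contactin 2, an adhesion molecule of growing axons. It had 11, 21, 22 and 8 read pairs in heterozygous libraries, against 15, 10, 25 and 11 in wild-type libraries. The groups overlapped fully at these low counts, with means of 0.68 ± 0.331 CPM in heterozygous and 0.661 ± 0.244 CPM in wild-type libraries. The log2 change of 0.03 ± 0.44 had a 95% interval of 0.518-fold to 2-fold (edgeR adjusted p = 0.987), and its sign turned in 4 of the 8 fits that left out 1 library. Thy1 (chromosome 9, 44043384 to 44048579, plus strand), a GPI-anchored glycoprotein of mature neurons, had 0, 0, 3 and 1 read pairs in heterozygous libraries, against 3, 1, 3 and 4 in wild-type libraries. It did not pass the filter, and the ratio of its sums was 0.355 (counting interval 0.0825 to 1.2).

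Rbfox3 (ENSMUSG00000025576; chromosome 11, 118489762 to 118911597, minus strand) encodes NeuN, a splicing regulator used as a marker of postmitotic neurons. It had 1.80, 4.78, 2.63 and 3.15 CPM in heterozygous libraries, against 5.53, 5.96, 7.24 and 4.70 CPM in wild-type libraries. The groups met only where heterozygous replicate 2 was just above wild-type replicate 4. The mean was 3.09 ± 1.26 CPM in heterozygous and 5.86 ± 1.06 CPM in wild-type libraries (SD over 4 libraries), with a ratio of 0.528. The log2 difference was -0.93 ± 0.28 (SE), with a 95% interval of 0.344-fold to 0.805-fold. Over all genes it missed the threshold (edgeR unadjusted p = 0.00685, adjusted p = 0.185), and the exact two-sided permutation p was 0.0571. DESeq2 placed it past the threshold (adjusted p = 0.0447), so the call depends on the tool. Without wild-type replicate 3 the difference was -0.81 ± 0.30 (edgeR adjusted p = 0.311) and DESeq2 did not call it.

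**Figure D2:**
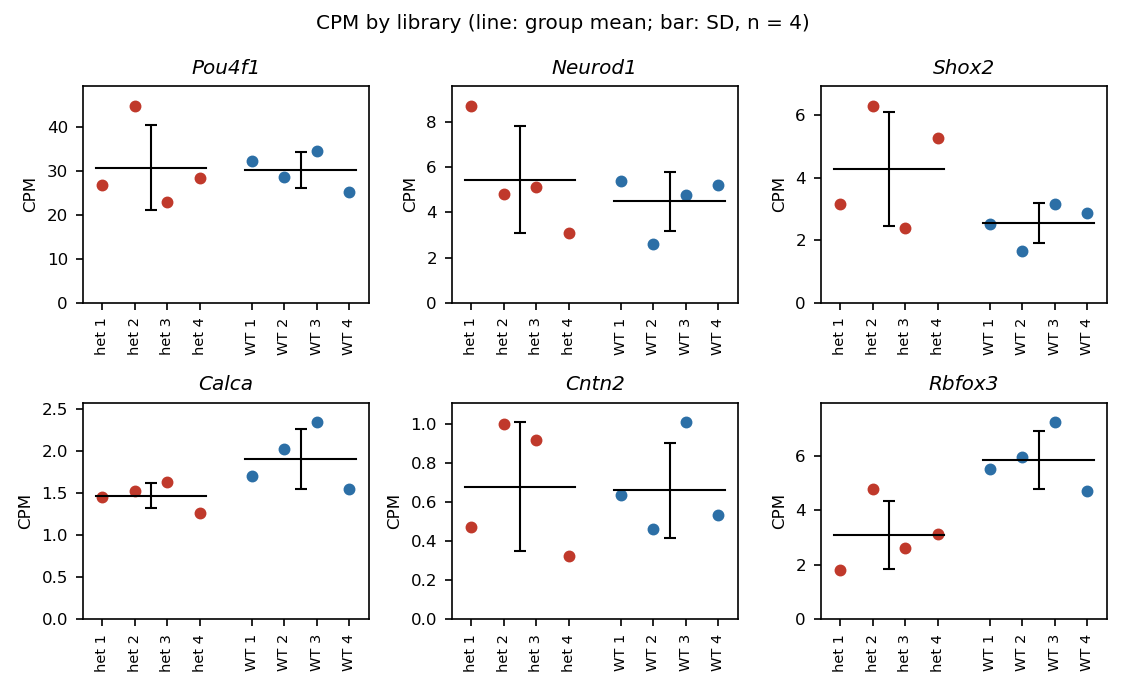
CPM (vertical) of the 6 genes that passed the filter, in heterozygous (het) and wild-type (WT) libraries by replicate number, with the group mean and SD (n = 4). Rbfox3 lies at 1.80 to 4.78 CPM in heterozygous and 4.70 to 7.24 CPM in wild-type libraries. Calca also overlaps narrowly, at 1.27 to 1.63 CPM in heterozygous and 1.55 to 2.35 CPM in wild-type libraries, and the remaining genes overlap more widely.

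Taking the panel by genotype, 6 of the 9 genes could be tested, and edgeR called 0 lower and 0 higher. Over all 16989 genes tested 1.02% were called lower and 0.147% higher, 1.17% in all. At an unadjusted p under 0.05 there were 2 of the 6, Rbfox3 lower and Shox2 higher, and over all genes 13.4%. DESeq2 called Rbfox3 alone, against 2.43% of its 16925 genes lower and 0.904% higher (3.33% in all). None of the 6 had groups that did not overlap, against 4.89% of all genes for lower and 2.98% for higher. The median log2 change of the 6 was 0.03, with 2 negative and 4 positive, and that of all genes was -0.003. Without wild-type replicate 3 edgeR again called 0 of the 6, against 0.614% of all 17256 genes lower and 0.0695% higher, 0.684% in all. The same 2 genes were under 0.05 before adjustment, as were 13.1% of all genes. DESeq2 called 0, against 1.75% of 17207 genes lower and 0.86% higher (2.61% in all). Again none of the 6 had groups apart, against 6.71% of all genes for lower and 5.27% for higher. The median of the 6 was then 0.20, and without heterozygous replicate 2 it was -0.20.

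**Figure D3:**
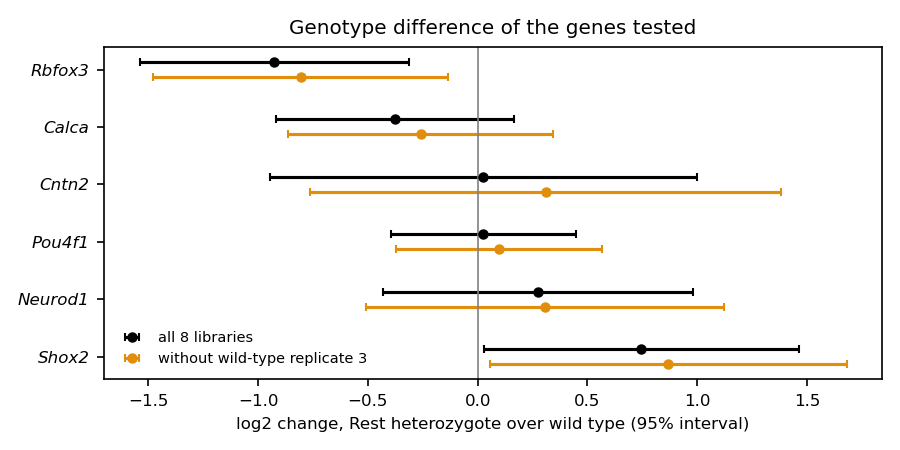
Log2 change of the Rest heterozygotes over wild type (horizontal) with its 95% interval for the 6 genes tested, in all 8 libraries and without wild-type replicate 3. The intervals of Rbfox3 (-0.93) and Shox2 (0.75) do not reach 0 before adjustment, and those of the other 4 genes do.

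The panel was next read as a measure of carried-over ganglion, a use that was not tested. The summed level of the 9 genes was 42.5, 63.5, 35.9 and 41.5 CPM in heterozygous libraries. In wild-type libraries it was 48.1, 41.6, 53.3 and 40.2 CPM. Heterozygous replicate 2 and wild-type replicate 3 were the 2 highest, 1 in each group. This sum is mostly Pou4f1, so the median log2 deviation of the 6 tested genes, which weights them equally, was also taken. It was -0.15, 0.29, -0.19 and -0.32 in heterozygous libraries and 0.07, -0.15, 0.30 and -0.10 in wild-type libraries. The same 2 libraries stood highest on both measures. They differed in other markers: over the genes of most neurons the median log2 deviation was -0.01 in heterozygous replicate 2 and 0.90 in wild-type replicate 3, and over the mesenchyme genes it was 0.39 in heterozygous replicate 2, the highest of the 8, and -0.02 in wild-type replicate 3. The part of either in the panel's level was not tested. Wild-type replicate 3 was highest in Calca, Cntn2 and Rbfox3, heterozygous replicate 2 in Pou4f1 and Shox2, and heterozygous replicate 1 in Neurod1.

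Wild-type replicate 3 was set against the mean of the other 3 wild-type libraries. Its ratio was 1.09 for Neurod1, 1.2 for Pou4f1, 1.33 for Calca, 1.34 for Rbfox3, 1.35 for Shox2 and 1.86 for Cntn2. All 6 were above 1, with a median of 1.34, and the median of all genes was 0.994. Genes of most neurons moved further, with a median ratio of 1.94 over 24 genes, 22 of them above 1. This library was the highest of the 8 in 20 of those 24 genes, against 10.3% of all genes tested. Tubb3, the neuronal tubulin, reached 61.95 CPM there, and 13.8 to 20.4 CPM in the other 7 libraries. Stmn2, a microtubule regulator of growing axons, was at 42.7 CPM against 5.72 to 12.8 CPM. Prph, an intermediate filament of peripheral neurons, was at 48.7 CPM against 3.25 to 9.23 CPM, and Elavl2, an RNA-binding protein of neurons, was at 14.03 CPM against 1.24 to 4.03 CPM.

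Among the tested genes reported from these lists, the steepest ratio in that library belonged to a gene of another kind of neuron, Th. Th, the rate-limiting enzyme of catecholamine synthesis, reached 7.84 CPM there, and 0.213 to 0.982 CPM in the other 7 libraries, a ratio of 17.7 to the other wild-type libraries. Dbh, the enzyme that makes noradrenaline, was at 1.09 CPM against 0 to 0.327 CPM and did not pass the filter. These 2 genes, the 4 named before them, P2rx3, Chat, Slc18a3 and Slc5a7 were singled out after their values were seen. The list of genes from other ganglia and efferent neurons had a median ratio of 1.46 over 7 tested genes. P2rx3, an ATP receptor of sensory neurons, had 1.46, and Chat, the acetylcholine-synthesising enzyme, was at or near 0 in all 8 libraries. Slc18a3, a transporter of acetylcholine, was at 0.485 CPM in wild-type replicate 3 and 0 in the other 7 libraries, and did not pass the filter. Slc5a7, a transporter of choline, was at 3.80 CPM there, against 1.70 to 5.26 CPM in the other 7. The 11 glial genes had a median of 0.864, with 2 above 1. Their summed level was 1225 to 1580 CPM in heterozygous and 1076 to 1564 CPM in wild-type libraries, the lowest being wild-type replicate 3. Several of these glial genes are also expressed by melanocytes and otic epithelium.

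**Figure D4:**
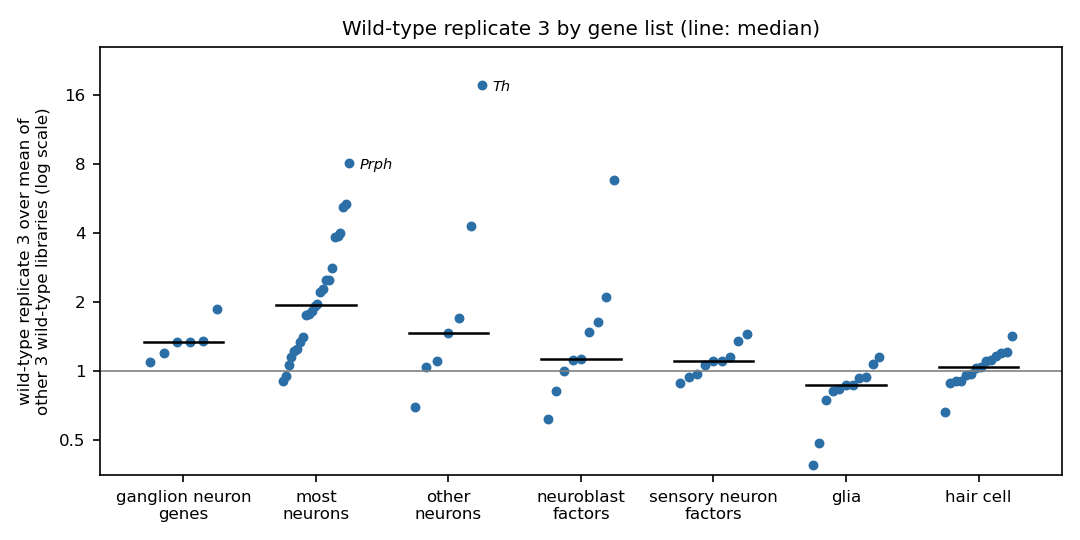
Level in wild-type replicate 3 over the mean of the other 3 wild-type libraries (vertical, log scale), 1 point per tested gene in 7 lists, with the list's median as a line. The ganglion neuron genes lie at 1.09 to 1.86, and Th stands at 17.7.

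**Figure D5:**
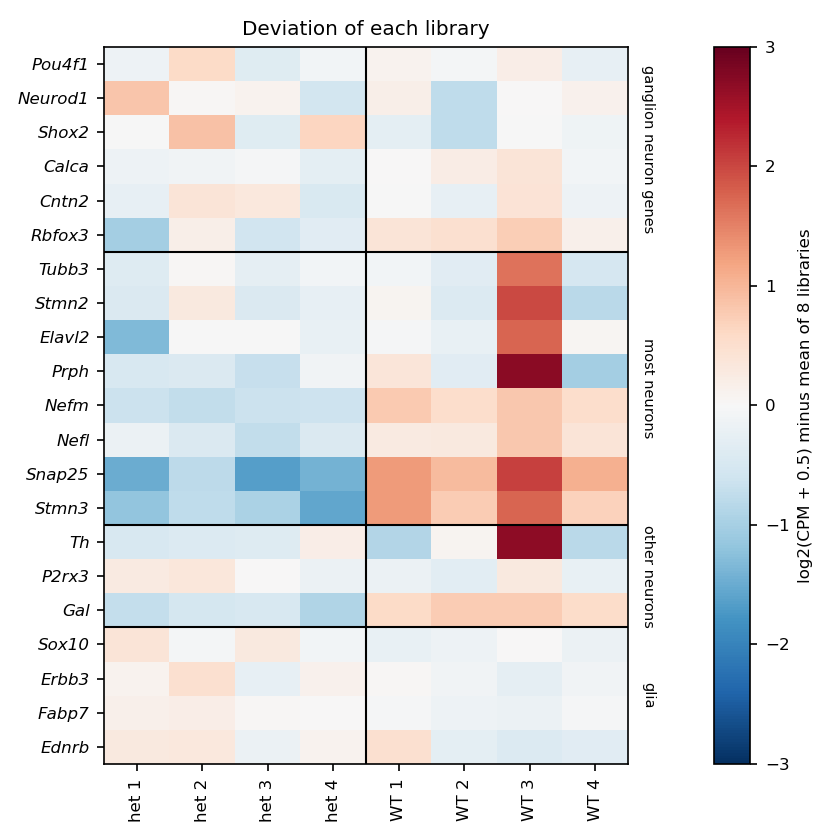
Log2(CPM + 0.5) of each library minus the mean of the 8 libraries (colour), for the 6 ganglion neuron genes tested and genes of 3 other lists, in heterozygous (het) and wild-type (WT) libraries. Wild-type replicate 3 is highest in Calca, Cntn2 and Rbfox3 of the 6 ganglion neuron genes. Of the others it is highest in Tubb3, Stmn2, Elavl2, Prph, Nefm, Nefl, Snap25, Stmn3, Th and, by a small margin, Gal.

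The other genes of these neurons were compared by genotype to set the panel in context, and their counts stand beside the same shares of all genes (13.4% at an unadjusted p under 0.05, 2.43% lower and 0.904% higher by DESeq2). Of 15 transcription factors of neuroblasts and young neurons, 9 were tested and edgeR called 0 (2 at an unadjusted p under 0.05, 0 by DESeq2). Ebf1, the most abundant of them, averaged 291 ± 67.1 CPM in heterozygous and 256 ± 24.4 CPM in wild-type libraries (edgeR adjusted p = 0.604), and Eya2 averaged 15.4 ± 2.04 CPM in heterozygous and 11.3 ± 2.80 CPM in wild-type libraries (adjusted p = 0.32). Of 13 factors of sensory neurons, 9 were tested and edgeR called 0 (3 at an unadjusted p under 0.05), while DESeq2 called 2 higher, Gata3 (adjusted p = 0.0231) and Runx1 (0.0146), the second named after its value was seen. Isl1 averaged 147 ± 13.4 CPM in heterozygous and 146 ± 12.6 CPM in wild-type libraries. Gata3, also a gene of otic epithelium, averaged 148 ± 33.8 CPM in heterozygous and 103 ± 9.04 CPM in wild-type libraries (edgeR adjusted p = 0.154). Of 7 receptors for neurotrophins and GDNF family ligands, 0 were called and 0 had an unadjusted p under 0.05, and DESeq2 called 0. Ntrk2, the BDNF receptor, averaged 13.9 ± 2.65 CPM in heterozygous and 11.5 ± 2.29 CPM in wild-type libraries (edgeR adjusted p = 0.537), and Gfra1 averaged 70 ± 18.9 CPM in heterozygous and 66.7 ± 5.99 CPM in wild-type libraries.

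Of 24 genes of most neurons, edgeR called 4 lower and 0 higher (DESeq2 6 lower and 0 higher). At an unadjusted p under 0.05 there were 7 of the 24. Over all genes edgeR called 1.02% lower and 0.147% higher, and 13.4% had an unadjusted p under 0.05. The 4 called by edgeR were the neurofilaments Nefm and Nefl, the synaptic gene Snap25 and Stmn3, several of which hair cells also use. Stmn3 averaged 3.04 ± 0.801 CPM in heterozygous and 16.6 ± 6.00 CPM in wild-type libraries (log2 change -2.45 ± 0.28, edgeR adjusted p = 0.00146). The median log2 change of the 24 genes was -0.52 in all libraries and -0.09 without wild-type replicate 3. That of the panel was 0.03 in all libraries and 0.20 without it. Without that library the same 4 of the 24 were again called lower, Snap25 at -2.61, Stmn3 at -2.195, Nefm at -1.29 and Nefl at -0.75. Of 18 genes from other neurons, 7 were tested, 2 had an unadjusted p under 0.05 and edgeR called 1 lower. This was the neuropeptide gene Gal, at 2.35 ± 0.374 CPM in heterozygous and 6.55 ± 0.556 CPM in wild-type libraries (log2 change -1.48 ± 0.18, edgeR adjusted p = 0.00254). DESeq2 called Gal lower and 1 gene higher, the sodium channel gene Scn11a (adjusted p = 0.0407), named after its value was seen.

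Among the paralogs of the panel, 8 of 18 were tested and edgeR and DESeq2 called 0 (0 at an unadjusted p under 0.05). Pou4f3, the hair cell relative of Pou4f1, averaged 111 ± 9.78 CPM in heterozygous and 116 ± 11.5 CPM in wild-type libraries (edgeR adjusted p = 0.783). Cntn1 averaged 82.2 ± 19.2 CPM in heterozygous and 83.5 ± 11.3 CPM in wild-type libraries, far above Cntn2 (8.78 against 0.0721 CPM per kb). Of 15 binding partners, inhibitors and receptors of panel proteins, 14 were tested and both tools called 0 (0 at an unadjusted p under 0.05). They included Tcf4, which pairs with NEUROD1, and Id3, an inhibitor of such pairs. In the other cell types, edgeR called 3 of 14 hair cell genes lower (Otof, Lhfpl5 and Slc17a8), against 1.02% of all genes. At an unadjusted p under 0.05 there were 6 of the 14, against 13.4% of all genes. By both tools 0 were called of 11 glial (2 at an unadjusted p under 0.05), 10 supporting cell (1) and 7 mesenchyme genes (1).

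The genes most like the panel across the 8 libraries were Brd2, Zc3h8, Mtss1l, Kctd2 and Slc7a11, by Pearson correlation with the mean standardised log2(CPM + 0.5) of the 6 tested genes. Their correlations were 0.969, 0.947, 0.916, 0.914 and 0.913, the highest among 13592 candidates, as a description over 8 libraries that share depth and composition. Brd2 had 155, 200.0, 140 and 136 CPM in heterozygous and 172, 138, 199 and 145 CPM in wild-type libraries, highest where the panel was highest. None of these 5 was on the lists of neuronal genes.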

How the data were processed

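Poly(A)-primed cDNA of pooled utricle RNA was sequenced as paired reads. The authors deposited 1 file of gene counts per library, whole numbers of read pairs per gene that were not normalized, and the tools named per the submitters' processing notes were STAR 2.5.2a and DESeq2 (its version is not stated), on build GRCm38.p4. The annotation is not given in the sources used here. They also deposited a normalized signal, counts divided by 1 size factor per library, for 21369 genes in 7 libraries without wild-type replicate 4. Of its values 100% became whole reads (tolerance 0.001), and the count test on those reads called 128 genes.

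The unstranded column was used, so reads of overlapping and antisense genes cannot be told apart. Lines that name no gene held 25.2% to 29.97% of read pairs in heterozygous and 30.08% to 33.88% in wild-type libraries. They stayed out, as did 114 spike-in and transgene identifiers (at most 76 read pairs per library). Read pairs outside genes made up 11.9% to 18.26% in heterozygous and 18.37% to 22.2% in wild-type libraries. Genes detected numbered 23393 to 23983 in heterozygous and 24256 to 24675 in wild-type libraries. These measures thus separated the genotypes, and their part in the genotype differences was not tested. Columns of other series numbered 0. Symbols, exon lengths and coordinates came from GENCODE M21 (GRCm38), in which Drgx stands under the older symbol Prrxl1, and promoters from RefSeq (GRCm38.p6), found for 8 of the 9 genes.

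Genes were kept by filterByExpr of edgeR 4.0.16 in R 4.3.3 (minimum count 10, minimum total 15) and scaled by TMM. Genotypes were compared over all 8 libraries by edgeR's quasi-likelihood test without a block, with Benjamini-Hochberg adjustment over all 16989 genes at a threshold of 0.05, and again without wild-type replicate 3. The test was also run on simulated counts with the same relative spread for every gene. These do not model shifts of a whole library or changed genes with few reads, so they do not show how it performs on this panel. Exact two-sided permutation tests over 70 assignments (35 without that library) cannot give a p below 0.0286. Intervals are at 95%, and those of count ratios and the floor of 3 counts cover counting error only. Reads that mapped to several places are counted apart from genes in these files, so levels of near-identical copies are uncertain. Alternatives were DESeq2 1.42.0, other scalings and filters, the strand column, the authors' libraries, leaving out libraries and a replicate block.

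The 9 genes and the 11 context lists were chosen with earlier results of these data known, and 1 gene of a context list is not reported here and was left out of that list's counts. Named genes were the 9, up to 4 called genes per list, taken by adjusted p (else the 2 most abundant), and the 5 most like the panel, and those outside this rule are said to be so. Ednrb, Fabp7, Sox9, Jag1, Col1a2 and Col3a1 followed the rule as well and were not past the threshold.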

Additional observations from a re-analysis of the deposited data

Results flagged for a closer look

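In each genotype's 4 libraries, the level of each gene named with values except Slc18a3 and Slc5a7 was taken, 98 groups in all. The highest or lowest library was checked for a gap to the others that takes up more than 0.829 of the group's range, which chance gives in about 1 of 20 groups. There were 17 such cases. Of the 9 ganglion neuron genes, Tlx3 was 1 of them, at 0.1213 CPM in wild-type replicate 3 (3 read pairs) and 0 in the other wild-type libraries, which is no more than a count of 0 allows. Chat was at 0.04849 CPM in wild-type replicate 4 and at 0 in the others.

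Among wild-type libraries, replicate 3 also stood apart in Th (7.845 CPM, the others 0.213 to 0.877), Prph (48.69 CPM, the others 3.25 to 9.23) and Tubb3 (61.95 CPM, the others 13.8 to 18.6). It also stood apart in Stmn2 (42.7 CPM, the others 5.72 to 11.1), Elavl2 (14.03 CPM, the others 3.23 to 4.03) and Zc3h8 (21.63 CPM, the others 17.8 to 18.3). Of these genes, all but Zc3h8 were chosen after their values were seen. Zc3h8 was named for its likeness to the panel, which was itself high in wild-type replicate 3. Wild-type replicate 1 stood apart in Ednrb (824.1 CPM, the others 440.4 to 483) and Jag1 (1101 CPM, the others 803 to 849).

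Among heterozygous libraries, replicate 2 stood apart in Cntn1 (110.6 CPM, the others 70.5 to 76.9), Zc3h8 (20.79 CPM, the others 17.3 to 17.7), Mtss1l (32.69 CPM, the others 23.8 to 24.4) and Slc7a11 (3.011 CPM, the others 1.07 to 1.31). Zc3h8, Mtss1l and Slc7a11 were named for their likeness to the panel, which was itself high in that library. Replicate 1 stood apart in Rest (131.7 CPM, the others 125 to 126). Replicate 4 stood apart in Gfra1 (98.39 CPM, the others 59.9 to 60.9) and Th (0.9819 CPM, the others 0.429 to 0.501).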

How the results depend on the processing

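Leaving out 1 library at a time gave 0 calls among the 9 genes in every case, 105 to 140 genes lower and 12 to 28 higher over all genes, against 173 and 25 with all libraries. Over those fits the median log2 change of the 6 tested genes ranged from -0.202 (without heterozygous replicate 2) to 0.202 (without wild-type replicate 3). A different quantity, the median log2 deviation of these genes in each library, had an SD of 0.228 between libraries. Single genes ranged from -0.047 to 0.475 for Neurod1, -0.2 to 0.143 for Pou4f1 and -0.205 to 0.311 for Cntn2. Rbfox3 stayed negative in every fit run (-1.197 to -0.737, adjusted p 0.0704 to 0.371 on leaving out 1 library), as Shox2 stayed positive (0.517 to 0.947).

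DESeq2 called 411 genes lower and 153 higher, among them 1 of the panel, Rbfox3 (-0.92). The replicate numbers did not pair the samples (correlations of same-numbered deviations -0.006, -0.103, 0.055 and -0.12), and with the replicate block 80 genes were lower and 16 higher, Pou4f1 was at -0.01 and Cntn2 at -0.02. On the authors' libraries and genes, which lack wild-type replicate 4, 112 were lower, with Pou4f1 at -0.051 and Cntn2 at -0.061. The fit that left out wild-type replicate 4 gave the same values. Leaving out heterozygous replicate 2 and wild-type replicate 3 together, a choice made after seeing the data, gave 83 lower and 14 higher, with Pou4f1 at -0.141. With library totals only, Pou4f1 was at -0.029 and Cntn2 at -0.026. On the larger strand column Pou4f1 was at -0.009 and Cntn2 was not tested. A strand column holds only part of a gene's reads, for Cntn2 58 or 65 of 123 read pairs. For these reversals and moved counts the cause was not tested, apart from fewer libraries where some were left out. The counts of Neurog1, Tlx3, Thy1 and Cntn2 limit what could be detected for them.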
